A study of Mus musculus with 6 samples.

Results

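The colony-stimulating factors are the cytokines that drive the production, survival and activation of myeloid leukocytes, and 6 of their ligand and receptor genes are described here in mouse lung. The set holds 2 ligands, Csf1 and Csf2, and 4 receptor chains, Csf1r, Csf2ra, Csf2rb and Csf3r. They were chosen by name out of 20882 gene columns, with earlier results of these data known. The cells were live lung leukocytes, sorted for CD45, from a mouse strain with a humanized PD-1, which restrains activated T cells. The mice were 6-8 weeks old and had received either a PD-1 agonist (3 labelled mice) or an isotype control (3 labelled mice). All groups carried the humanized PD-1, and the sources used here do not say whether or how airway disease was induced in them, although the title of the study names neutrophilic asthma. Droplet-based single-cell RNA sequencing (10x Genomics Chromium) was used, with the 3 samples of a treatment mixed by cell hashing, in which antibody-bound tags mark the sample of origin.

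M-CSF, encoded by Csf1, signals through the receptor tyrosine kinase Csf1r and maintains monocytes and macrophages. GM-CSF, encoded by Csf2, binds a specific alpha chain, Csf2ra, which pairs with the signalling beta chain Csf2rb that the receptors for IL-3 and IL-5 also use, and it is required in the lung for alveolar macrophages to mature. G-CSF acts through Csf3r, the receptor that governs neutrophil production and release. Ligand and receptor are usually made by different cells, so the question for each gene was which leukocytes carried its transcript and whether its level differed between the agonist and the isotype library.

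The 3 tables of a treatment, numbered replicates 1 to 3 after their labels, were not independent samples. Any pair of tables from the same treatment shared 2373 to 2736 cell barcodes (35.9% to 42.5% of the smaller table), against 3 to 13 barcodes (0.0469% to 0.201%) for tables from different treatments. Each treatment was therefore read as 1 pool, each barcode was used once, and no test between treatments was possible. The values compare 1 agonist library with 1 isotype library, and the spread between tables of a treatment is not replicate error, because the tables hold many of the same cells. After removal of doublets, 11259 agonist cells with 36135196 counts and 10302 isotype cells with 36759506 counts remained, at a median of 2156 and 2456 counts per cell.

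Cells were grouped into 24 clusters without using the 6 genes or the other genes of their pathway, and the clusters were named from markers of known cell types. In all, 12 classes had at least 50 cells in each library, and alveolar macrophage-like cells, with 36 agonist and 38 isotype cells, were not among them. The basophil-like cluster carried all 10 basophil markers at 2-fold the level of the other cells or more, led by Il6, Mcpt8, Cyp11a1, Gata2 and Il4. Of the larger neutrophil-like clusters, cluster 12 (Retnlg, S100a9, S100a8) carried 10 of 14 neutrophil markers at that fold and cluster 9 (Il1a, Rab15, Il1rn, Tnf) only 5 of 14. Of the nonclassical monocyte-like clusters, cluster 16 and cluster 20 both carried 12 of 12 markers, but the neutrophil markers summed to 15910 and 14970 CPM (counts scaled to a total of 1000000) in cluster 20, agonist and isotype, against 491 and 456 CPM in cluster 16. Cluster 20 also had a median doublet score of 0.183, where cells over 0.25 had been removed, so values of nonclassical monocyte-like cells that a ratio is drawn from are also given by cluster.

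Start-site sequences are shown for 4 of the genes, because Csf1 and Csf2 had their highest level in the same class, as did Csf2ra and Csf3r, and a promoter entry was found for these 4. They come from RefSeq on GRCm38.p6 and lie upstream of both the RefSeq and the GENCODE start. In GENCODE on GRCm38, Csf1 spans chr3:107741048-107760469 and Csf2 chr11:54247271-54249667, both on the minus strand, Csf2ra spans chr19:61223957-61228429 on the minus strand, and Csf3r spans chr4:126024550-126044440 on the plus strand. The windows are Csf1 at chr3:107760470-107760719, Csf2 at chr11:54249900-54250149, Csf2ra at chr19:61228430-61228668 and Csf3r at chr4:126024409-126024549, each printed 5′ to 3′ on the strand of its gene. Capitals mark matches to 7 motifs searched on both strands.
Csf1: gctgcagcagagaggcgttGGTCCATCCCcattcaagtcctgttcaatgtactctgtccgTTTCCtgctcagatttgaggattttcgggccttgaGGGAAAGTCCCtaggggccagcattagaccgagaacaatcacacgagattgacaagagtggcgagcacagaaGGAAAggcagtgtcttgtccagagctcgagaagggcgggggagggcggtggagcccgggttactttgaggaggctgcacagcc
Csf2: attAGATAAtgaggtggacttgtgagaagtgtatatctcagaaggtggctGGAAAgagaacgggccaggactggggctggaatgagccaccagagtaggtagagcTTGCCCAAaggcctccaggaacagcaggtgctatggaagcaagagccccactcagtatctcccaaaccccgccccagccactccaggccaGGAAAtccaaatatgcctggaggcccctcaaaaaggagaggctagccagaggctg
Csf2ra: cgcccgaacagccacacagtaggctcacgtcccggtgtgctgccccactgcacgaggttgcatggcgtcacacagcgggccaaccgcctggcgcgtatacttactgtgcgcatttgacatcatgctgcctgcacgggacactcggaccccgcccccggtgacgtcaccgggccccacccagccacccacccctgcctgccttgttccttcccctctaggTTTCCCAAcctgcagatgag
Csf3r: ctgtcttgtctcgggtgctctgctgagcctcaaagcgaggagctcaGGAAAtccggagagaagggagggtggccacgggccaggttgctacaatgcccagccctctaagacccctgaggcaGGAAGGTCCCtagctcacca

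The Csf1 window held the NFAT core GGAAA 3 times and the NF-kB motif GGGANNNNCC 3 times, with a pair of NF-kB matches on opposite strands overlapping 1 of the NFAT cores 154 bases upstream of the start. The Csf2 window held GGAAA 2 times, the GATA motif AGATAA once and the C/EBP motif TTNNGNAA once. It ends 232 bases upstream of the start that GENCODE gives for Csf2, so the sequence next to that start is not in it. The Csf3r window held GGAAA once and GGGANNNNCC once, and the Csf2ra window held a GGAAA that overlaps its only TTNNGNAA. No window held the AP-1 motif TGANTCA, the PU.1 motif GAGGAA or the TATA box TATAAA. Among 32851 promoters, a window of 250 bases held GGAAA in 55.6%, GGGANNNNCC in 17.6%, AGATAA in 9.99%, TTNNGNAA in 36.8%, TGANTCA in 6.75%, GAGGAA in 23.3% and TATAAA in 12.4%. In windows of the Csf3r length, 141 bases, GGAAA was found in 38.2% and GGGANNNNCC in 9.13%, and in windows of the Csf2ra length, 239 bases, GGAAA in 53.9% and TTNNGNAA in 35.9%. The matches describe letters only.

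**Figure D1:**
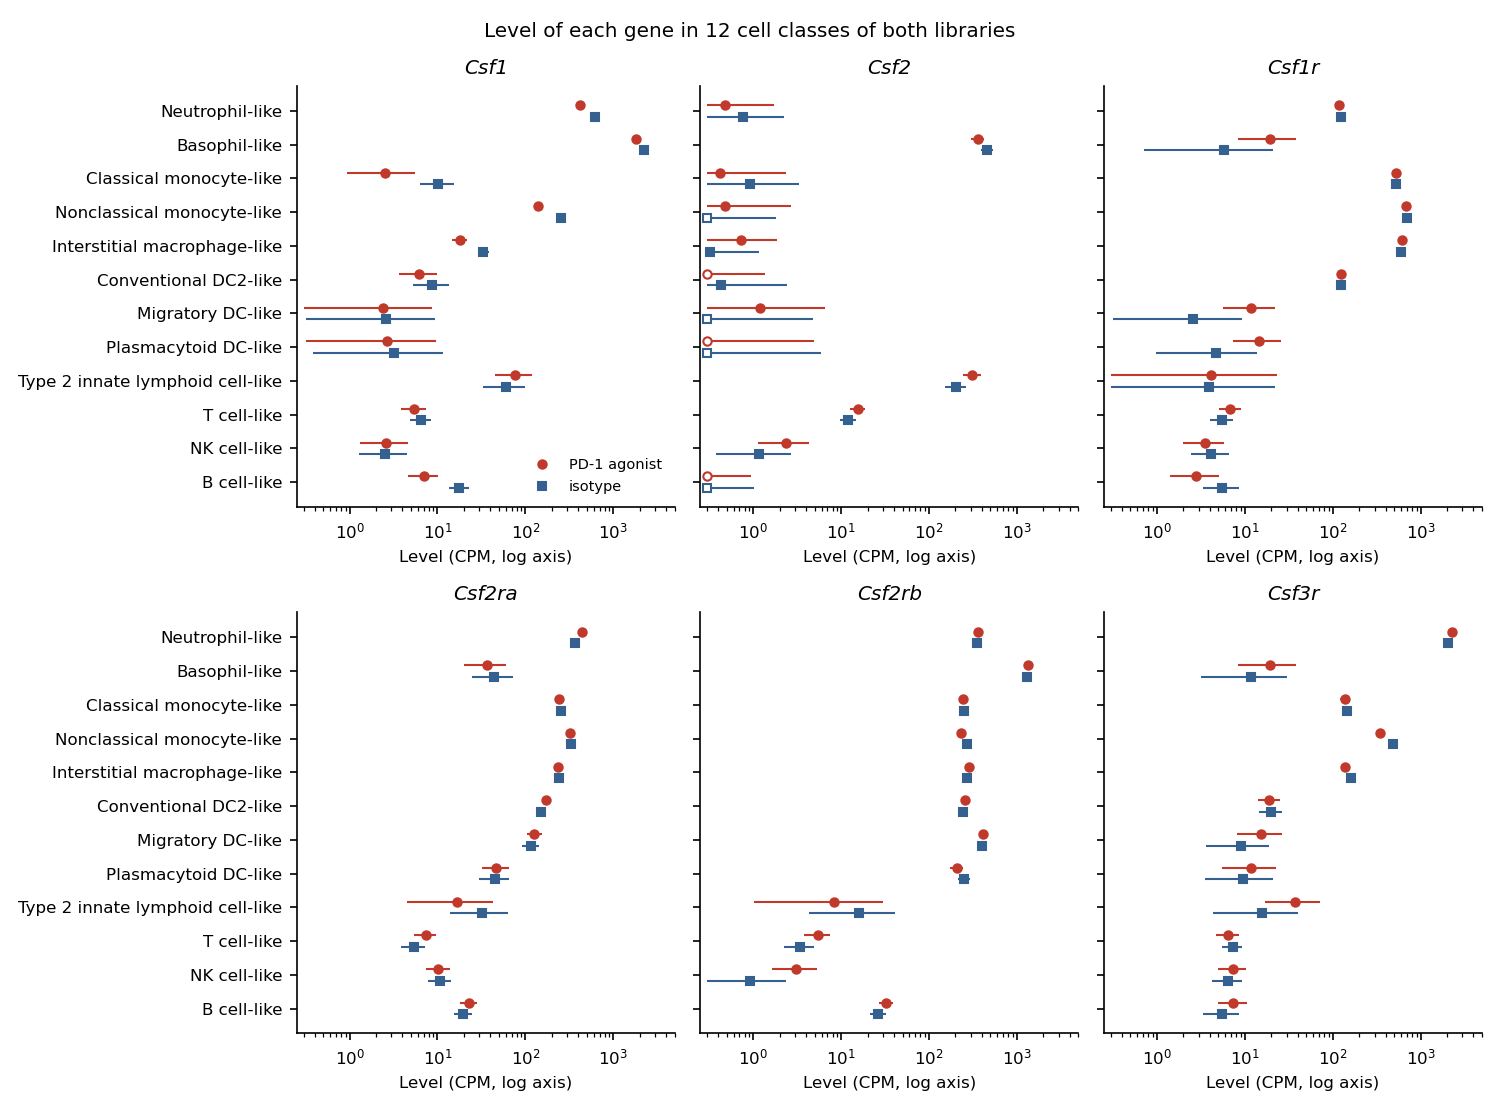
Level of each of the 6 genes in 12 cell classes, as CPM on a log axis, for the PD-1 agonist library (red circles) and the isotype library (blue squares). Lines are exact Poisson intervals at the 95% level, which cover counting error only, and open symbols at the left edge stand for 0 counts. Csf1, Csf2 and Csf2rb were highest in basophil-like cells, Csf1r in nonclassical monocyte-like cells, and Csf2ra and Csf3r in neutrophil-like cells.

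The class with the highest level of each gene was the same in both libraries, as the plot of levels by class shows. For Csf2 the intervals of basophil-like and ILC2-like cells overlapped in the agonist library, and in agonist replicates 2 and 3 the ILC2-like level was the higher one, so these classes cannot be ordered there. Csf1, Csf2 and Csf2rb had their highest level in basophil-like cells, Csf1r in nonclassical monocyte-like cells, and Csf2ra and Csf3r in neutrophil-like cells. Pooled levels are CPM of the cells' summed counts, with library totals scaled by the trimmed mean of M-values. Levels of single deposited tables are CPM of unscaled totals, so they are not on quite the same scale as the pooled values. Levels are compared within a gene, not between genes. Over the 22 clusters with at least 50 cells a library, levels of the receptor chains went together: Pearson's r on log2(CPM + 1) was 0.87 for Csf2ra with Csf2rb, 0.87 for Csf1r with Csf2ra, 0.85 for Csf2ra with Csf3r, 0.79 for Csf1r with Csf3r, 0.68 for Csf1r with Csf2rb and 0.65 for Csf2rb with Csf3r. Csf1 had r of 0.35 to 0.60 with the receptors. Csf2 did not follow the receptors, with r between -0.30 and -0.10. These are descriptions over clusters that share both libraries.

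Over all kept cells, Csf1 was lower in the agonist library and the other 5 genes were at or slightly above the isotype level. Csf1 had 85.4, 89.8 and 95.9 CPM in the 3 agonist tables, against 119, 117 and 114 CPM in the 3 isotype tables, with no overlap. Pooled, it stood at 89.0 CPM in agonist cells and 115 CPM in isotype cells, a log2 ratio of -0.37 (95% interval -0.44 to -0.31). The intervals of ratios here and below are exact conditional ones, and they cover counting error only, not differences between mice.

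Csf2 had 10.8, 8.29 and 10.2 CPM in the agonist tables, against 9.79, 8.65 and 11.9 CPM in the isotype tables, and the treatments overlapped. Pooled, Csf2 had 348 counts in agonist cells and 320 in isotype cells, a log2 ratio of 0.16 (-0.06 to 0.39). The ratio had the opposite sign without the filter on cells, at -0.37, with every cell thinned to 1000 counts, at -0.33, and with doublet calls kept, at -0.015, and leaving out 1 table at a time gave 0.029 (without isotype replicate 1) to 0.36 (without agonist replicate 3).

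Among the receptor chains, Csf3r had 334, 322 and 308 CPM in the agonist tables, against 288, 306 and 280 CPM in the isotype tables, and the lowest agonist table lay above the highest isotype table. Its pooled log2 ratio was 0.17 (0.13 to 0.21), and 0.27 without the filter on cells. Csf2ra had 153, 158 and 160 CPM in the agonist tables, against 140, 143 and 141 CPM in the isotype tables. Its log2 ratio was 0.15 (0.092 to 0.20) and moved to 0.27 with thinned cells. Both receptors lead in neutrophil-like cells, which made up 21.4% of agonist cells and 19.01% of isotype cells, and over all kept cells the number of such cells and the RNA in each cannot be told apart.

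Csf2rb had 183, 188 and 188 CPM in the agonist tables, against 172, 173 and 172 CPM in the isotype tables, with no overlap, and a pooled log2 ratio of 0.12 (0.074 to 0.17). Csf1r had 206, 203 and 218 CPM in the agonist tables, against 206, 207 and 211 CPM in the isotype tables, which overlap, and a log2 ratio of 0.0089 (-0.037 to 0.055). None of the 6 genes passed a log2 ratio of 0.5 in either direction over all kept cells, where 6.94% of 15126 genes were that much higher in the agonist library and 3.23% that much lower. The median log2 ratio of the 6 genes was 0.14, beside -0.0047 for all genes compared.

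**Figure D2:**
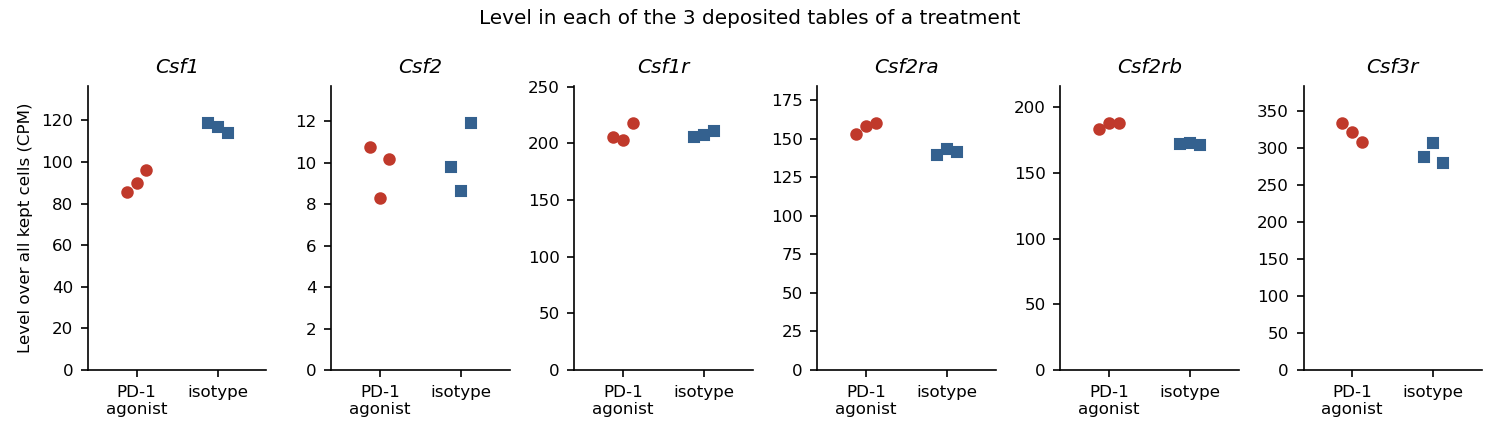
Level of each gene over all kept cells in each of the 3 deposited tables of a treatment, in CPM of unscaled totals. The PD-1 agonist (red circles) is left of the isotype (blue squares). Tables of a treatment share cells, so points are not independent; Csf1 lay lower in all 3 agonist tables (85.4 to 95.9) than in the isotype tables (114 to 119), while Csf2 and Csf1r overlapped.

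Among the leukocytes sorted for CD45, Csf1, the M-CSF gene, came mainly from granulocytes. Lung cells without CD45 were not profiled. In basophil-like cells (145 agonist and 117 isotype cells), 69.7% of agonist cells and 76.1% of isotype cells held a Csf1 count, or 51.7% and 56.0% after thinning. B cell-like cells were taken as background, although other classes had lower Csf1 levels. They had a count in 1.17% of agonist cells and 2.31% of isotype cells. Their median depth was 1475 and 1612, against 2550 and 2666 in basophil-like cells. Neutrophil-like cells held 54.7% of the agonist library's Csf1 counts and 56.5% of the isotype library's, and basophil-like cells 23.4% and 17.9%.

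In neutrophil-like cells, Csf1 was lower in the agonist library. It had 396, 391 and 473 CPM in the agonist tables, against 667, 616 and 596 CPM in the isotype tables, with no overlap. Pooled values were 418 CPM in 2405 agonist cells and 622 CPM in 1958 isotype cells, a log2 ratio of -0.57 (-0.66 to -0.48), and 26.6% of agonist cells and 40.3% of isotype cells held a count (19.9% and 29.1% thinned). Of the 5 genes with at least 50 counts in this class, Csf1 was past -0.5 and none past 0.5, where 7.19% of 7707 genes were that much lower and 7.77% that much higher.

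The makeup of the class also differed between the libraries, and its part in that ratio was not tested. Cluster 9, where Csf1 was concentrated, made up 30.98% of agonist and 43.1% of isotype neutrophil-like cells. Within cluster 9, Csf1 had 979, 920 and 1152 CPM in the agonist tables, against 1192, 1112 and 1057 CPM in the isotype tables, which overlap. Its pooled level was 1004 CPM in agonist cells and 1145 CPM in isotype cells, a log2 ratio of -0.19 (-0.28 to -0.093). Within cluster 12, Csf1 had 89.9, 87.4 and 116 CPM in the agonist tables, against 158, 134 and 148 CPM in the isotype tables, with no overlap and a pooled log2 ratio of -0.62 (-0.89 to -0.36). Csf1 was thus lower in the agonist library in each of these clusters, by less in cluster 9 than over the class.

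**Figure D3:**
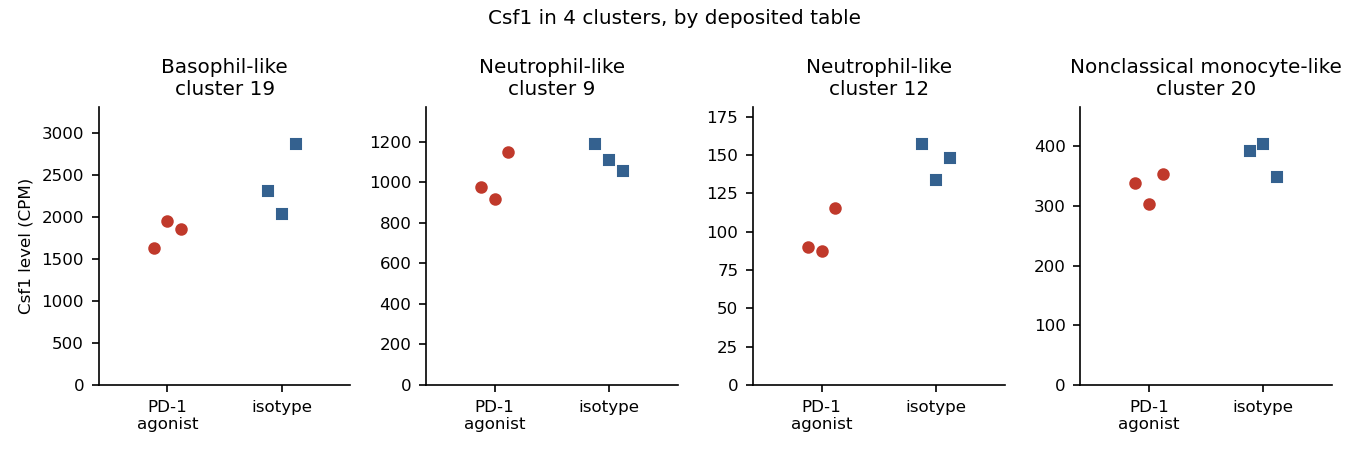
Csf1 level in CPM of unscaled totals in 4 clusters described in the text, by deposited table. The PD-1 agonist (red circles) is left of the isotype (blue squares), and each panel has its own axis from 0. In basophil-like cluster 19 and neutrophil-like cluster 12 every agonist table lay below every isotype table, while in neutrophil-like cluster 9 and nonclassical monocyte-like cluster 20 the treatments overlapped.

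In basophil-like cells, Csf1 had 1626, 1950 and 1854 CPM in the agonist tables, against 2307, 2038 and 2874 CPM in the isotype tables. Every agonist table lay below every isotype table, and pooled values were 1806 and 2255 CPM, agonist and isotype, a log2 ratio of -0.32 (-0.47 to -0.17). This ratio was smaller in size with doublet calls kept, at -0.091, and without the filter on cells, at -0.12. It was -0.20 without isotype replicate 3 and -0.21 without agonist replicate 1, and the cause of these shifts was not tested. Among basophil-like cells clustered with doublets, 12.6% in the agonist library and 21.9% in the isotype library were doublet calls. None of the 3 genes with at least 50 counts in this class, Csf1, Csf2 and Csf2rb, passed 0.5, where 12.1% of 2102 genes were that much higher in the agonist library and 9.13% that much lower.

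Nonclassical monocyte-like cells had the next level of Csf1, 140 CPM in agonist cells and 255 CPM in isotype cells, a log2 ratio of -0.86 (-1.08 to -0.65). Almost all of these counts, 287 of 290 agonist counts and 513 of 514 isotype counts, lay in cluster 20, the cluster with neutrophil markers. Within cluster 20 the level was 302 CPM in agonist cells and 376 CPM in isotype cells, a log2 ratio of -0.31 (-0.53 to -0.10), and the tables overlapped. The other 4 genes with enough counts in this class did not pass 0.5, though Csf3r, at -0.50, passed it without agonist replicate 1 or isotype replicate 1 (-0.51 each) and without agonist replicate 2 (-0.57). In this class 7.1% of 7329 genes were that much lower in the agonist library and 7.3% that much higher. The part of neutrophil transcripts in this value was not tested.

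Lower in the order of classes, Csf1 in interstitial macrophage-like cells was 17.9 CPM in agonist cells and 33.3 CPM in isotype cells, a log2 ratio of -0.89 (-1.25 to -0.54) that shrank to -0.30 at a coarser clustering and grew to -1.70 with thinned cells. Type 2 innate lymphoid cell-like (ILC2-like) cells, the innate counterpart of type 2 helper T cells, had 75.2 CPM in agonist cells and 59.5 CPM in isotype cells from 18 and 15 counts. An unnamed cluster led by Slc7a2, Ctsk and Arg1 had 103 CPM in agonist cells and 102 CPM in isotype cells. In B cell-like cells, Csf1 had 27 agonist counts (6.94 CPM) and 64 isotype counts (17.7 CPM), a log2 ratio of -1.35 (-2.06 to -0.68). The class used as background for Csf1 thus differed in the same direction as the granulocytes. The 6 classes below it in the order were at or below 10.1 CPM in both libraries. Their intervals overlapped with those of the class above them in both libraries, except conventional DC2-like cells in the isotype library. Among these lower classes, NK cell-like cells had 2.60 and 2.54 CPM, agonist and isotype, and T cell-like cells 5.43 and 6.44 CPM. Classical monocyte-like cells had 2.52 and 10.1 CPM. The part of free RNA in the Csf1 ratios was not tested.

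Csf2, the GM-CSF gene, was found in few cells. It had a count in 69 of 11259 agonist cells (0.613%) and 59 of 10302 isotype cells (0.573%), and counts per positive cell reached 40 in the agonist library and 32 in the isotype library. Basophil-like cells held 42.8% of the agonist library's Csf2 counts and 48.4% of the isotype library's, T cell-like cells 30.5% and 30.9%, and ILC2-like cells 21.3% and 15.9%. B cell-like cells had no count in 2137 agonist and 1820 isotype cells, which allows shares of cells with a count of up to 0.1404% and 0.165% (3 cells of the total). Plasmacytoid dendritic cell-like cells had none in 169 agonist and 124 isotype cells, which allows up to 1.78% and 2.42%.

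**Figure D4:**
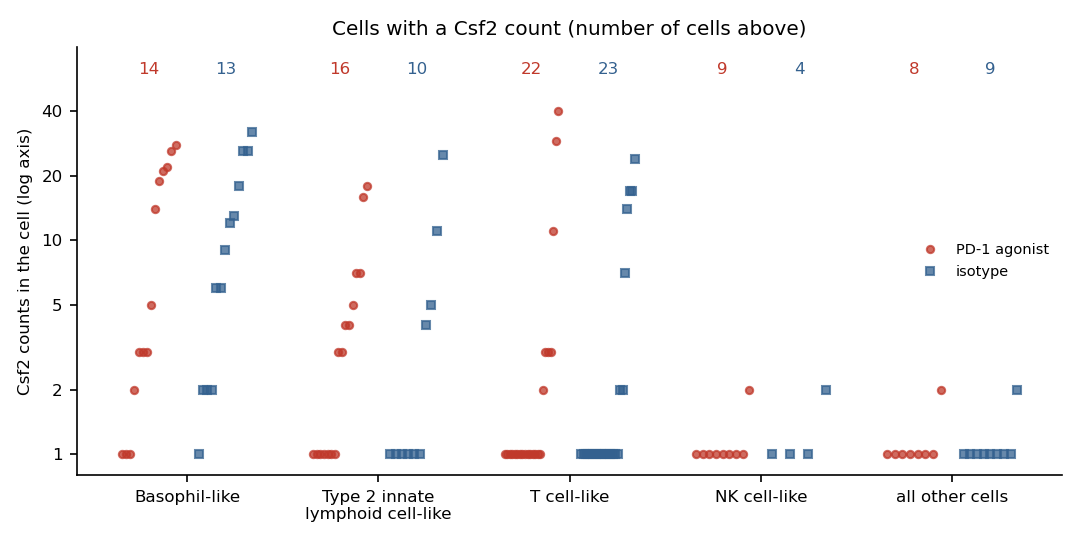
Csf2 counts in each cell with at least 1 count, on a log axis, by cell class, with the PD-1 agonist (red circles) left of the isotype (blue squares) and the number of positive cells above each column. Most positive T cell-like and NK cell-like cells held 1 count, whereas basophil-like cells reached 28 counts in the agonist library and 32 in the isotype library, and 1 agonist T cell-like cell held 40.

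In basophil-like cells, Csf2 had 414, 297 and 328 CPM in the agonist tables, against 584, 407 and 958 CPM in the isotype tables, and the treatments overlapped. Counts came from 14 of 145 agonist cells and 13 of 117 isotype cells, with a median of 4 counts per positive cell in the agonist library and 9 in the isotype library. The pooled level was 360 CPM in agonist cells and 456 CPM in isotype cells, a log2 ratio of -0.34 (-0.68 to -0.0092). The direction was lost without the filter on cells, where the ratio was 0.042, and the ratio was -1.14 with thinned cells, -0.80 without agonist replicate 2, -0.68 without isotype replicate 2 and -0.062 without agonist replicate 3. The same cells carried Csf1 transcript: 13 of the 14 agonist cells with Csf2 and 12 of the 13 isotype cells with Csf2 also had a Csf1 count. A Csf2rb count was seen in 11 of these Csf2-positive cells in each library. Over all basophil-like cells, 69.7% of agonist and 76.1% of isotype cells held a Csf1 count, and 85.5% and 93.2% a Csf2rb count.

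In ILC2-like cells, Csf2 was higher in the agonist library when pooled, at 309 CPM in 58 agonist cells and 202 CPM in 69 isotype cells, a log2 ratio of 0.61 (0.078 to 1.16). Its values by table were 163, 410 and 376 CPM in the agonist library, against 300, 223 and 31.2 CPM in the isotype library, and they overlapped. Positive cells were 16 in the agonist library (27.6%, or 14.0% thinned) and 10 in the isotype library (14.5%, or 7.35% thinned). A single isotype cell held 49.0% of that library's ILC2-like Csf2 counts, and without the top cell of each library the log2 ratio was 1.18. It was 0.94 without isotype replicate 1 and 0.36 without isotype replicate 3.

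In T cell-like cells, Csf2 had 24.5, 6.52 and 15.4 CPM in the agonist tables, against 11.2, 11.3 and 18.6 CPM in the isotype tables, which overlap. Positive cells were 22 of 2242 in the agonist library and 23 of 2355 in the isotype library, with 106 and 99 counts, and the pooled log2 ratio was 0.37 (-0.039 to 0.78). Without agonist replicate 1 it was -0.26, without the filter on cells -0.28, and with thinned cells 1.23, and leaving out other tables gave 0.18 (isotype replicate 1) to 0.66 (agonist replicate 2). Most counts lay in cluster 2 (Cxcr6, Rora, Icos, Cd40lg), with 52 agonist and 87 isotype counts, and in dividing cluster 17, with 49 agonist and 8 isotype counts. In the dividing cluster 1 agonist cell held 40 counts, 81.6% of that cluster's agonist counts.

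NK cell-like cells had a Csf2 count in 9 agonist cells and 4 isotype cells, 10 and 5 counts in all. Every other class had at most 4 counts of Csf2 in either library.

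Csf1r, the M-CSF receptor, was a mononuclear phagocyte transcript in both libraries. Its level was 682 and 710 CPM in nonclassical monocyte-like cells, agonist and isotype, then 611 and 595 CPM in interstitial macrophage-like cells and 525 and 530 CPM in classical monocyte-like cells, and the intervals of these neighbours did not overlap in either library. Among the 12 classes, conventional DC2-like cells (126 and 124 CPM) and neutrophil-like cells (118 and 125 CPM) followed and could not be ordered. The unnamed cluster, outside these classes, lay above them at 310 and 309 CPM, with a count in 71.7% of agonist and 71.9% of isotype cells. Interstitial macrophage-like cells held 44.7% of the agonist library's Csf1r counts and 48.2% of the isotype library's. B cell-like cells had a count in 0.468% of agonist cells and 1.04% of isotype cells, against 85.3% and 88.9% of nonclassical monocyte-like cells (47.5% and 55.1% thinned), whose median depths were 3151 and 3682.

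In nonclassical monocyte-like cells, Csf1r had 685, 656 and 626 CPM in the agonist tables, against 694, 674 and 720 CPM in the isotype tables, and the treatments overlapped. The pooled log2 ratio was -0.058 (-0.16 to 0.05). Within cluster 16, the part of the class without neutrophil markers, the level was 850 CPM in agonist cells and 996 CPM in isotype cells, a log2 ratio of -0.23 (-0.38 to -0.084), and within cluster 20 the ratio was -0.19. Cluster 16, with the higher Csf1r level, made up 67.4% of the agonist cells of the class and 50.5% of the isotype cells. Without isotype replicate 3 the ratio over the class was 0.0002, and without agonist replicate 1 it was -0.13. In interstitial macrophage-like cells, Csf1r had 603, 606 and 641 CPM in the agonist tables, against 593, 599 and 554 CPM in the isotype tables, with a pooled log2 ratio of 0.036 (-0.031 to 0.10).

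Csf2ra, the ligand-specific chain of the GM-CSF receptor, was widespread among myeloid cells, with the highest level in neutrophil-like cells, although in the isotype library its interval there overlapped that of nonclassical monocyte-like cells. In neutrophil-like cells it had 436, 454 and 442 CPM in the agonist tables, against 366, 362 and 367 CPM in the isotype tables, with no overlap. Pooled values were 440 CPM in agonist cells and 362 CPM in isotype cells, a log2 ratio of 0.28 (0.18 to 0.39), and the ratio was 0.29 in cluster 9 and 0.29 in cluster 12. Positive cells were 47.5% in the agonist library and 45.3% in the isotype library (34.2% and 29.0% thinned), against 3.79% and 3.57% of B cell-like cells at a similar depth. In the other classes with at least 50 Csf2ra counts the interval of the ratio included 0, and the difference between classes was not tested.

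The other myeloid classes carried Csf2ra at similar levels in both libraries. The level was 318 and 332 CPM in nonclassical monocyte-like cells, agonist and isotype (320 and 294 CPM in cluster 16, 321 and 348 CPM in cluster 20), 242 and 257 CPM in classical monocyte-like cells and 232 and 243 CPM in interstitial macrophage-like cells. Conventional DC2-like cells had 173 and 151 CPM and migratory dendritic cell-like cells 127 and 115 CPM. Outside the 12 classes, the unnamed cluster had 252 and 236 CPM and the few alveolar macrophage-like cells 146 and 170 CPM. Basophil-like cells, with the highest Csf2rb, had 36.2 CPM of Csf2ra in agonist cells and 44.2 CPM in isotype cells, from 15 counts each, an interval that overlaps those of plasmacytoid dendritic cell-like and ILC2-like cells. T cell-like cells were lowest, at 7.34 CPM in agonist cells and 5.35 CPM in isotype cells.

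Csf2rb, the shared beta chain, spans chr15:78325752-78353847 on the plus strand (GENCODE, GRCm38). It had 1391, 1200 and 1437 CPM in basophil-like cells of the agonist tables, against 1252, 1449 and 1352 CPM in those of the isotype tables, which overlap. Pooled values were 1335 CPM in agonist cells and 1301 CPM in isotype cells, a log2 ratio of 0.037 (-0.15 to 0.22) that was 0.29 with doublet calls kept, 0.30 without the filter on cells and -0.055 without isotype replicate 1. Migratory dendritic cell-like cells followed at 408 and 402 CPM, agonist and isotype, and neutrophil-like cells at 364 and 356 CPM. Interstitial macrophage-like, both monocyte-like, conventional DC2-like and plasmacytoid dendritic cell-like cells lay between 206 and 287 CPM in both libraries. Outside the 12 classes, the unnamed cluster had 310 and 273 CPM and the few alveolar macrophage-like cells 274 and 303 CPM, agonist and isotype. Of the nonclassical monocyte-like cells, cluster 16 had 192 CPM in agonist cells and 184 CPM in isotype cells, and cluster 20 had 279 and 308 CPM, so the ratio had opposite signs in these clusters, with intervals that include 0. NK cell-like cells had 13 agonist and 4 isotype counts, 3.08 and 0.924 CPM.

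Transcripts of both GM-CSF receptor chains were seen in 1 cell in 48.8% of agonist and 46.8% of isotype interstitial macrophage-like cells and in 43.9% and 53.1% of classical monocyte-like cells. The few alveolar macrophage-like cells held both in 19 of 36 agonist and 24 of 38 isotype cells, and the unnamed cluster in 50.4% and 59.3%. Both were seen together in 20.9% of agonist and 19.97% of isotype neutrophil-like cells, and in 7.59% of agonist and 10.3% of isotype basophil-like cells. These shares depend on depth, since interstitial macrophage-like cells had a median of 5751 and 5683 counts and neutrophil-like cells 1455 and 1580. Csf2rb2, the neighbouring paralog that in mice serves IL-3 alone, was also concentrated in basophil-like cells, at 710 CPM in agonist cells and 857 CPM in isotype cells. Of the 31-base words of the longest Csf2rb transcript, 29.3% occur in other genes, mostly Csf2rb2, but 1.2% of those in its last 500 bases, so counts of the pair could be split wrongly where reads fall further upstream.

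Csf3r, the G-CSF receptor, was mainly found in the neutrophil-like class, which held 81.1% of the agonist library's Csf3r counts and 75.5% of the isotype library's. In that class it had 2267, 2267 and 2152 CPM in the agonist tables, against 2078, 2190 and 2023 CPM in the isotype tables, and the treatments overlapped. Pooled values were 2262 CPM in agonist cells and 2073 CPM in isotype cells, a log2 ratio of 0.13 (0.083 to 0.17). That difference was not seen within the larger clusters: the ratio was -0.045 (-0.12 to 0.033) in cluster 9, at 1574 CPM in agonist cells and 1623 CPM in isotype cells, and 0.038 (-0.015 to 0.091) in cluster 12, at 2795 and 2721 CPM. Cluster 12, with the higher level, made up 67.7% of agonist and 55.4% of isotype neutrophil-like cells.

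Positive for Csf3r were 91.8% of agonist and 91.4% of isotype neutrophil-like cells (85.0% and 83.0% thinned), against 1.36% and 0.989% of B cell-like cells. Outside neutrophils, nonclassical monocyte-like cells had 345 CPM in agonist cells and 488 CPM in isotype cells, a log2 ratio of -0.50 (-0.64 to -0.36), which was -0.32 with doublet calls kept. Within cluster 20 the level was 599 CPM in agonist cells and 661 CPM in isotype cells (log2 ratio -0.14, interval -0.30 to 0.012), and within cluster 16 it was 132 CPM in agonist cells and 122 CPM in isotype cells. Interstitial macrophage-like cells had 140 and 161 CPM of Csf3r, agonist and isotype, with a count in 44.0% and 42.2% of cells. Classical monocyte-like cells had 137 and 147 CPM, with a count in 47.2% and 53.4% of cells. Csf1r and Csf3r occurred together in 76.9% of agonist and 85.4% of isotype cells of cluster 20, in 24.3% and 24.7% of cluster 16, and in 41.4% and 48.7% of classical monocyte-like cells. Of the 31-base words of the longest Csf3r transcript, 24.4% occur in other genes, 728 of them in the processed pseudogene AC105061.2, which has no column in the tables. Of the words in its last 500 bases, 23% occur in other genes, so reads near that end could also be ambiguous.

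**Figure D5:**
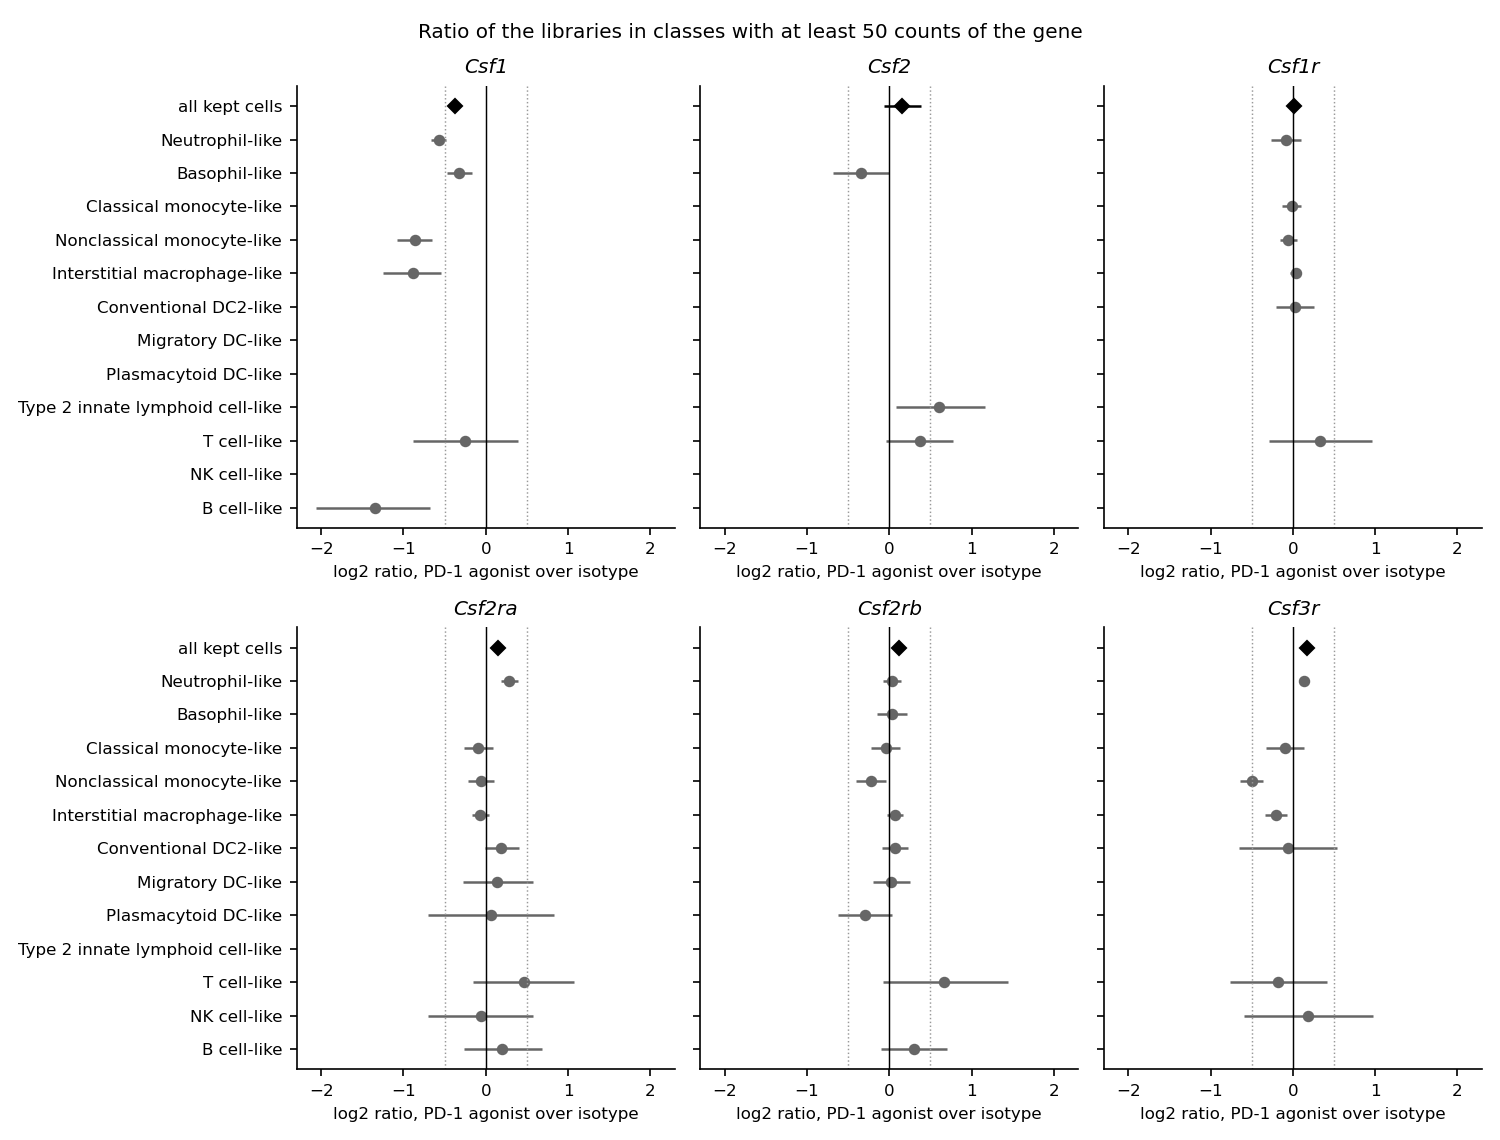
Log2 ratio of the PD-1 agonist over the isotype library for each gene over all kept cells (black diamonds) and in each class with at least 50 counts of the gene (grey circles), with exact conditional intervals at the 95% level that cover counting error only; dotted lines mark 0.5 in either direction. Csf1 lay left of 0 in neutrophil-like (-0.57), nonclassical monocyte-like (-0.86) and basophil-like (-0.32) cells, Csf2ra right of 0 in neutrophil-like cells (0.28), and Csf1r near 0 in the classes where it was high. Single clusters are not plotted. Csf1r was 850 CPM in agonist and 996 CPM in isotype cells of nonclassical monocyte-like cluster 16, and 499 and 568 CPM in cluster 20.

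The other genes of the pathway were compared in the same way. Of 74 genes on the list, 73 had a column (Il3 was not analysed here) and 71 had at least 50 counts over all kept cells. Of these, 1 was past 0.5 and higher in the agonist library and 1 past 0.5 and lower, beside 6.94% and 3.23% of all 15126 genes; 36 had a positive and 35 a negative ratio, and the median log2 ratio was 0.0037. The gene that was higher was Il5, the eosinophil growth factor that signals through the same beta chain, with 85 agonist and 53 isotype counts (log2 ratio 0.72, 0.21 to 1.25), of which 84 and 45 lay in ILC2-like cells.

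By role, the 19 proximal signalling genes, kinases, STATs and adaptors downstream of the receptors, had 14 positive and 5 negative ratios and a median of 0.038, with Stat5b, a transducer of GM-CSF signals, at 0.18. The 11 feedback genes had 4 positive and 7 negative ratios and a median of -0.089, with Cish, a target of STAT5, at 0.083 and Dok2 at -0.23. The 22 growth factor response genes and myeloid transcription factors had 13 positive and 9 negative ratios and a median of 0.029. Among them Cebpb, a factor of emergency granulopoiesis, stood at 0.22, Cebpa, a factor of steady granulopoiesis, at -0.26 and the survival genes Bcl2a1d at 0.33, Bcl2a1a at -0.12, Bcl2a1b at -0.16 and Bcl2l1 at -0.076. The 12 factors and receptors that induce Csf2 in lymphocytes had 3 positive and 9 negative ratios and a median of -0.11. The 3 genes of receptor shedding were all negative, with Adam17, the protease that sheds Csf1r, at -0.11. The median of all genes was -0.0047. The ligands Csf3 and Il34 had too few counts to compare, 20 agonist and 25 isotype counts for Csf3 and 16 agonist and 10 isotype counts for Il34.

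The genes whose levels over the 22 clusters were most like those of each member, among 12105 genes with at least 200 counts, were found by Pearson's r on log2(CPM + 1). For Csf1 they were Hdc (0.897), which makes histamine, Dmxl2 (0.894) and Acod1 (0.884), which makes itaconate. For Csf2 they were Lif (0.924) and Il13 (0.910), both secreted cytokines, and Ero1l (0.898). For Csf1r they were Clec4a3 (0.971), Clec4a1 (0.969) and Gpr141 (0.959), for Csf2ra Hlx (0.967), Wdfy3 (0.967) and the receptor chain Il13ra1 (0.964), and for Csf2rb Pirb (0.941), an inhibitory receptor, Ncf1 (0.922), a subunit of the NADPH oxidase, and Gsn (0.92). For Csf3r they were Tlr6 (0.971), a Toll-like receptor, Slfn4 (0.967) and Trem1 (0.963), an activating receptor of neutrophils. Hdc, Il13 and Trem1 also served as markers in naming clusters.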

How the data were processed

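Live CD45+ lung cells of 6 labelled mice, 3 per treatment, were profiled. The submitters' processing notes name Partek and mm10, and no version, aligner or counting method is given in the sources used here. Per the file headers, the deposited tables hold 1 record per cell, with the authors' estimated counts (expected counts of transcripts) for 20882 genes, their total count and expressed gene count, and their percent of mitochondrial and ribosomal counts, which was not used. Nonzero values of the 6 genes were whole within 0.01 in 99.99% to 100% of records, and sums were rounded to whole numbers. Empty lines (603 to 796 a table) were skipped and 3 to 12 joined lines a table were split.

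The members and gene lists were chosen with earlier results of these data known. Per treatment each barcode was kept once, in the record with its highest total, leaving 13728 agonist and 12448 isotype barcodes. Cells marked N/A in an annotation column of the authors, read here as their filter, were left out, and 12216 and 11106 cells passed. The cells used had 500 to 4000 genes and totals of at most 14888 counts (agonist) and 14912 counts (isotype). Scrublet, run through scanpy 1.11.5 at an expected rate of 0.1, gave each cell a doublet score, scores over 0.25 were called doublets, and 957 agonist and 804 isotype calls (7.83% and 7.24%) were removed. Remaining cells were clustered on 2000 variable genes other than the members and the pathway list, with 30 principal components, 15 neighbours and Leiden clustering at a resolution of 1 (igraph 0.11.9, leidenalg 0.10.2). A cluster was called "-like" from at least 3 markers detected in 10% of its cells at 2-fold the level elsewhere, and left unnamed where its leading genes went against the name; classes rest on these rebuilt names.

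Counts were summed per class and library and edgeR 4.0.16 (R 4.3.3) supplied TMM factors that scaled the pooled totals, and no test. Levels of single deposited tables were taken on unscaled totals. Intervals are exact (Poisson for levels, Clopper-Pearson for shares and ratios, scipy 1.17.1) at the 95% level, cover counting error only and are too narrow where 1 cell holds many counts. The limit that 0 counts allow is 3 cells of the total. Genes entered a ratio with at least 50 counts over both libraries, and a log2 ratio of 0.5 in either direction was the size rule for naming pathway genes. For each member the 3 genes with the most similar levels over clusters were named. Shares were also taken after thinning each cell to 1000 counts, leaving out 737 agonist and 533 isotype cells that were shallower. The ratio and its interval were checked on simulated independent Poisson counts over all kept cells. That check does not cover single classes, the TMM scaling or cells that hold many counts. Alternatives were the scaling, the record kept, the cell filter, doublets, the top cell, each table left out, the paralog, thinning, the clustering and the count minimum. The edgeR test of 3 against 3 that was planned for independent tables was not run, because tables of a treatment share cells. Some pathway genes, 1 of them past 0.5, are not reported here by name.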

Additional observations from a re-analysis of the deposited data

How the results depend on the processing

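Over 29 results and 271 alternatives, 230 values stayed within the counting interval (for the share of genes past 0.5, within 1.5 times), 39 moved further, and 2 ratios whose interval had excluded 0 turned sign. Counting ratios near 0 as well, 17 alternatives in 8 results had the opposite sign. No paired analysis was possible because the tables of a treatment share cells, so neither the replicate block nor DESeq2 was run. Leaving out a table gave log2 ratios over all kept cells of -0.41 to -0.31 for Csf1, 0.029 to 0.36 for Csf2, -0.015 to 0.034 for Csf1r, 0.13 to 0.18 for Csf2ra, 0.11 to 0.15 for Csf2rb and 0.15 to 0.19 for Csf3r. In leading classes it gave -0.44 to -0.20 for Csf1, -0.80 to -0.062 for Csf2, -0.13 to 0.0002 for Csf1r, 0.29 to 0.33 for Csf2ra, -0.055 to 0.17 for Csf2rb and 0.11 to 0.17 for Csf3r. Without the filter on cells the ratio was -0.37 for Csf2, -0.043 for Csf1r and 0.27 for Csf3r over all cells, -0.12 for Csf1, 0.042 for Csf2 and 0.30 for Csf2rb in basophil-like cells, and 0.18 for Csf3r in neutrophil-like cells. With doublet calls kept it was -0.091 for Csf1 and 0.29 for Csf2rb in basophil-like cells and 0.21 for Csf3r over all cells, and mean levels became 1673 CPM (Csf1), 281 CPM (Csf2) and 1088 CPM (Csf2rb) in basophil-like cells and 630 CPM (Csf1r) in nonclassical monocyte-like cells. With thinned cells the ratio was -0.33 for Csf2, 0.27 for Csf2ra and 0.26 for Csf3r over all cells, -1.14 for Csf2 in basophil-like cells and -0.21 for Csf1r in nonclassical monocyte-like cells. Alternatives added after seeing the data, single clusters, gave -0.23 (cluster 16) and -0.19 (cluster 20) for Csf1r and -0.045 (cluster 9) and 0.038 (cluster 12) for Csf3r. At Leiden resolution 0.5 Csf1r averaged 767 CPM in nonclassical monocyte-like cells, and at 2 Csf3r averaged 2356 CPM in neutrophil-like cells. The share of genes past 0.5 over all cells, 10.2%, was 19.7% from 10 counts upward and 6.18% from 200. The cause of these shifts was not tested. Leading classes did not differ at resolution 0.5 or 2 or with doublet calls kept. Csf2 rests on 348 agonist and 320 isotype counts, from 69 and 59 cells.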
